A study of Rattus norvegicus with 4 samples.

Results

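Irx3 and Irx5, which encode homeodomain transcription factors of the Iroquois family, were followed in whole rat ovaries cultured with or without glial cell line-derived neurotrophic factor (GDNF). They are represented by every probe set whose platform gene symbol is Irx3 alone or Irx5 alone. This gave 5 of the 31042 probe sets, 3 for Irx3 and 2 for Irx5, or 2 of the 14217 genes named by a single symbol. The genes were chosen by their lower signals in these same GDNF samples, so that difference is described below and not tested.

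Ovaries of 4-day-old female rat pups were cultured for 2 days on floating filters, in 2 control samples with no added factor and 2 samples labelled as GDNF-treated. Each sample was the RNA of 6 to 10 pooled ovaries on 1 array, and the strain and the dose of GDNF are not given in the sources used here. All 4 samples shared a medium with bovine serum albumin, Albumax, insulin (200 ng/ml), transferrin and ascorbic acid. The treatment text of the GDNF samples repeats that of the controls, so the groups rest on titles and descriptions. Whether replicates were separate litters or cultures is not in the labels, so limma's p-values reflect no more than the spread seen among these 4 samples, part of which may be technical. The median signal per array was 36.7 to 41.1, and 2 arrays a group limit the precision of every value. Defining genes of the labelled tissue were bright: the granulosa gene Foxl2 read 591 to 690 and the zona pellucida gene Zp3 1665 to 2732 over the 4 arrays.

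Iroquois proteins bind DNA through a homeodomain of the TALE class, whose other members include the Meis, Pbx and Tgif proteins. Their genes lie in clusters, and in the rat Irx3, Irx5 and Irx6 are together on chromosome 19 while Irx1, Irx2 and Irx4 are on chromosome 1. In the mouse, Irx3 and Irx5 are active in the fetal ovary much more than in the testis, depend there on Wnt and beta-catenin signalling, and are needed for normal contacts between granulosa cells and the oocyte.

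The RefSeq promoter of Irx3 (assembly GRCr8, chr19:31384868-31385167, plus strand, 250 bases before to 50 after the annotated start) is shown because Irx3 is the Iroquois gene measured most firmly here, by 2 probe sets above the filter described below. Capitals mark its longest unbroken run of purines, 25 bases at positions 132 to 156 of the window.

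Irx3: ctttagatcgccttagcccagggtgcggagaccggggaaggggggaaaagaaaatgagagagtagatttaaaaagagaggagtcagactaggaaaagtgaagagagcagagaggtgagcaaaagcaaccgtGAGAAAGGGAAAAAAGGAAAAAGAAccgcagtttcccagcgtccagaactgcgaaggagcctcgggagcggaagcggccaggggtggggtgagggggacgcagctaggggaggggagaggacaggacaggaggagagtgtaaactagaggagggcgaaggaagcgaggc

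The sequence is 75.7% purine on the plus strand, against a median of 50.3% over the 33469 rat promoters of the same length, and 0.134% of them are at least as rich in purines. A purine run of 25 bases or more occurs in 1.57% of promoters. The Irx3 window holds 13 CpG dinucleotides, where Irx1 has 35, Irx2 has 25 and Irx4 has 31. None of 10 short motifs searched on both strands was found in it. The site of the Wnt effectors TCF/LEF, CTTTGA, is in 16.1% of all promoters of this length. The GATA factor site GATAA is in 26.5%, and the steroidogenic NR5A site AAGGTCA in 4.61%. A palindrome bound by Iroquois proteins themselves, ACANNTGT, is in 7.89%. The AP-1 site TGANTCA is in 7.33% and the ETS site CCGGAA in 15% of promoters. The forkhead site GTAAACA is in 3.78%, and the Sp1 site GGGCGG in 33.1%. Of the core promoter elements, the TATA box TATAAA is in 14.2% and the box CCAAT in 37.5%. These searches say only that the letters are not in this window.

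Irx3 was lower in both GDNF samples than in both controls in its bright probe sets. The brighter, 1390776_at, had signals of 972 and 939 on the control arrays, replicate 1 first here and below, and of 703 and 758 on the GDNF arrays. The control arrays lay close together and the groups did not overlap. Mean signals were 955 ± 23.5 in control and 731 ± 38.7 in GDNF samples (SD, n = 2 each), so the GDNF mean was 76.5% of the control mean. On the log2(signal + 1) scale used for all fold changes, GDNF minus control, this was -0.39 with a standard error of 0.10 from the fit across all probe sets. The gap between the lowest control and the highest GDNF value was 0.31 (log2), wider than the range within the control arrays (0.05) or within the GDNF arrays (0.11).

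A second Irx3 probe set, 1394251_x_at, showed a larger difference. Its control arrays read 334 and 332, and its GDNF arrays 228 and 198. Here the controls were almost equal, both GDNF arrays were lower, and GDNF replicate 2 was the lowest. The means were 333 ± 1.06 and 213 ± 21.3 (SD, n = 2 each), a GDNF mean of 63.8% of control and a log2 fold change of -0.65 (SE 0.13). The suffix x marks a set whose probes may also match other transcripts.

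The bright probe sets of Irx3 differed in the size of the change and in which GDNF array was lower. The log2 difference between them within an array (1394251_x_at minus 1390776_at) was -1.54 and -1.49 for the controls, against -1.62 and -1.93 with GDNF. GDNF replicate 2 lay farthest from the controls, and the mean shift between the groups was -0.26. The lower signal of Irx3 ranged over the 4 pairings of a GDNF with a control array from 72.4% to 80.8% of control in 1390776_at, and from 59.2% to 68.5% in 1394251_x_at.

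The third Irx3 probe set, 1386520_at, read 2.6 and 1.2 on the control and 1.0 and 0.7 on the GDNF arrays. These values do not overlap either, but all lie far under the signal of 21.4 (the 40th percentile of probe set means) below which probe sets were not tested, so they give no usable level. The platform annotation lists 1386520_at and 1394251_x_at under the same expressed sequence tag. One of that pair was bright and the other near the bottom of the scale on every array.

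Irx5 was also lower in both GDNF samples, at signals nearer the filter and with a wider spread. Its brighter probe set, 1386823_at, had 66.0 and 45.9 on the control arrays, and 39.2 and 30.7 on the GDNF arrays. The groups did not overlap, yet control replicate 2 was nearer to GDNF replicate 1 than to the other control. Mean signals were 56.0 ± 14.2 and 34.95 ± 6.01 (SD, n = 2 each), a GDNF mean of 62.5% of control and a log2 fold change of -0.65 (SE 0.27). The gap between the groups (0.22, log2) was smaller than the range within the control arrays (0.51) or within the GDNF arrays (0.34). Over the 4 pairings of arrays the GDNF signal was 46.5% to 85.4% of control. The log2 fold change of Irx5 was -0.39 without control replicate 1, and -0.91 without control replicate 2.

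The other Irx5 probe set, 1385914_at, did not show this. Its control arrays read 14.6 and 8.6 and its GDNF arrays 8.4 and 12.9, below the filter, with overlapping groups. Irx5 therefore rests on 1 dim probe set, and Irx3 on 2 bright ones. The change of Irx5 relative to Irx3 within the arrays was -0.26 (log2) against 1390776_at and -0.0022 against 1394251_x_at. Whether Irx5 changed more than Irx3 or by about as much thus depends on the Irx3 probe set chosen.

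**Figure D1:**
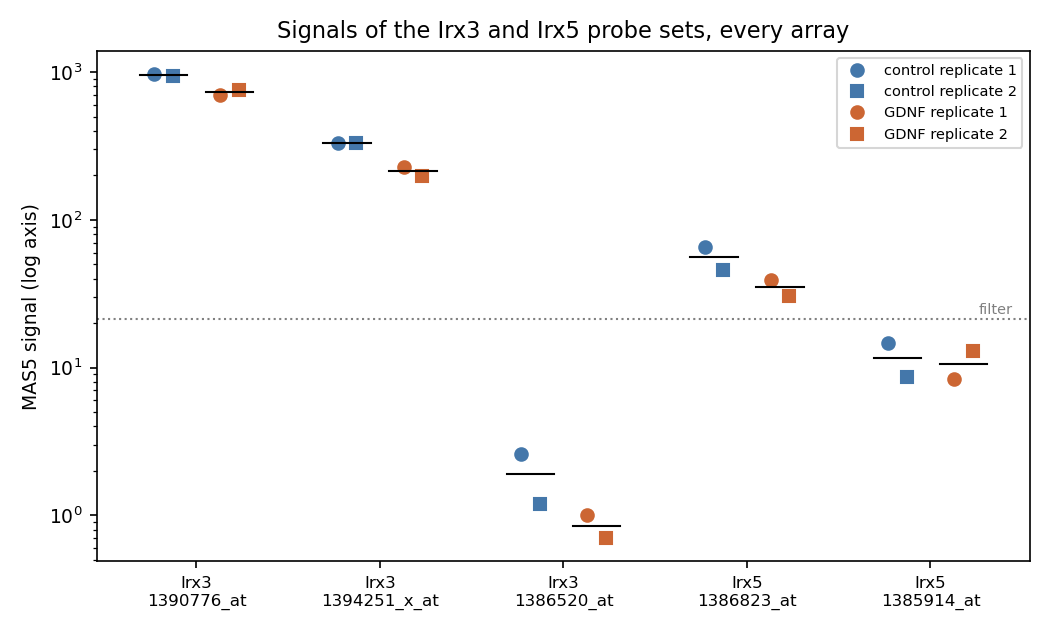
MAS5 signal (log axis) of the 5 Irx3 and Irx5 probe sets on each of the 4 arrays. Circles are replicate 1, squares replicate 2, short bars the group means of 2 arrays, and the dotted line the filter at a signal of 21.4. The bright Irx3 sets and 1386823_at of Irx5 have both GDNF arrays below both controls, and 1385914_at has overlapping groups.

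How the spread of these probe sets compared with the rest of the array was read from the replicates. The log2 range between the control arrays had a median of 0.15 over the 18625 probe sets tested. Of these, 97.6% had a control range at least as large as that of Irx3 1394251_x_at, 82.1% as that of 1390776_at, and 7.81% as that of Irx5 1386823_at. The Irx3 controls were thus closer together than most, and the Irx5 controls farther apart than most. Probe sets of every brightness were counted here, while Irx3 was bright and Irx5 dim, so signal level may account for part of this. For the GDNF arrays the median range was 0.21, and 50.8% of probe sets had a range at least as large as that of 1394251_x_at, 71.5% as that of 1390776_at and 29.9% as that of Irx5.

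The tested members stood low in the list of all fold changes, which is how they came to be chosen. Of the 18625 probe sets, 683 (3.67%) were as low as or lower than Irx3 1390776_at, 95 (0.51%) than 1394251_x_at, and 91 (0.489%) than Irx5 1386823_at. All 3 tested member probe sets had groups that did not overlap with the lower values in GDNF, as had 3091 probe sets or 16.6% of those tested. Past a 1.5-fold difference as well were 1394251_x_at and 1386823_at, among 120 probe sets (0.644%). Both tested Irx3 probe sets were lower without overlap, which was so for all tested probe sets of 113 of the 2758 genes with 2 or more (4.10%). No probe set of the array passed limma's test at an adjusted p of 0.05 (0 of 18625, 0.00%), and 508 (2.73%) had an unadjusted p below 0.05. Whole ovaries were measured, so fewer cells making Irx3 or Irx5 and less of their RNA per cell cannot be told apart.

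Among the other Iroquois genes no probe set reached the filter. Irx2 came nearest to it, with control signals of 21.2 and 12.7, GDNF signals of 16.8 and 22.5, and overlapping groups. Irx1 read 1.5 to 15.4 in 1384312_at and 0.6 to 3.8 in 1377177_at over the 4 arrays. Irx4 read 1.1 to 10.5 in 1392981_at and 0.5 to 1.1 in 1390081_at. Both pairs of probe sets gave mean differences of opposite sign (Irx1 -0.72 and 0.59, Irx4 -0.61 and 0.08, log2), at signals too low to read. Irx6, the remaining gene of the Irx3 and Irx5 cluster, is not analysed here, since no probe set carries its symbol alone. Of the 6 Iroquois genes only Irx3 and Irx5 thus had a probe set above the filter.

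None of the 5 flanking genes tested was lower in both GDNF samples than in both controls, as were 16.6% of all probe sets tested. Irx3 and Irx5 were, but they had been chosen for it, so their contrast with so few neighbours is described and was not tested. In RefSeq order, Fto, an RNA demethylase gene whose introns hold distant enhancers of Irx3, comes next to Irx3, followed by Rpgrip1l, Aktip, Rbl2 and Chd9. On the other side of Irx6 lie Mmp2, Lpcat2, Capns2 and Slc6a2. Fto had control signals of 345 and 354 and GDNF signals of 302 and 356, with overlapping groups and a log2 fold change of -0.09 (SE 0.13), or 0.03 without GDNF replicate 1. The matrix metalloproteinase gene Mmp2 read 792 and 834 without and 947 and 910 with GDNF. Its groups did not overlap, with the higher values in GDNF (0.19, SE 0.10), as in 13.4% of all probe sets. Rbl2, a retinoblastoma-related repressor, had -0.08 (SE 0.12), and 0.03 without GDNF replicate 1. Aktip had -0.03 (SE 0.15) and the chromatin remodeller Chd9 -0.01 (SE 0.14) in their brighter probe sets, all overlapping. A dimmer probe set of Aktip had 0.14, the brighter one 0.02 without GDNF replicate 2, and Chd9 0.07 without it. Slc6a2 was below the filter, and the others had no probe set of that symbol alone. Their median was -0.03, and the lowest fold change among them was -0.09 against -0.39 and -0.65 for Irx3.

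**Figure D2:**
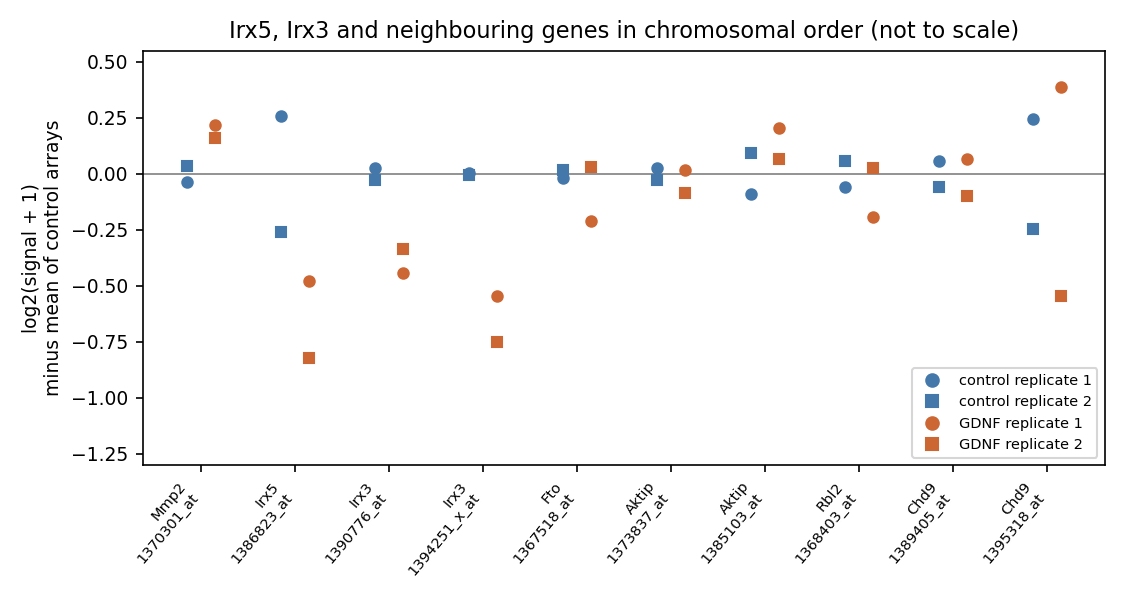
The log2(signal + 1) of each array minus the mean of the control arrays, for the tested probe sets of Irx5, Irx3 and their neighbours in chromosomal order, not to scale. Circles are replicate 1 and squares replicate 2. The GDNF points of Irx5 and Irx3 lie below all their control points, and those of Mmp2 lie above.

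Other TALE homeobox genes lay on both sides of 0. Of 9 tested, each by its brightest probe set, 6 were lower with GDNF by their means and 3 were higher. Of the 6, 3 did not overlap, while 16.6% of all probe sets tested were lower without overlap. The median log2 fold change was -0.02 against -0.0067 for all probe sets tested. The lowest were Meis3 (-0.20, SE 0.25, and -0.01 without GDNF replicate 2) and Pbx2 (-0.12, SE 0.12, and -0.07 without GDNF replicate 1), and the highest Meis2 (0.10, SE 0.16, and -0.01 without control replicate 2) and Tgif2 (0.08, SE 0.17, and -0.12 without GDNF replicate 2). Meis1, a cofactor of homeobox proteins and lower without overlap like Pbx2 and Tgif1, read 563 and 601 without and 537 and 544 with GDNF (-0.11, and -0.06 without control replicate 2). A dimmer probe set of Pknox1 differed by as much as Irx5 in the opposite direction. It read 22.3 and 14.7 without and 25.5 and 34.2 with GDNF (0.68, SE 0.33, no overlap), while the brighter Pknox1 set had -0.02.

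Of the Wnt and beta-catenin genes, the pathway upstream of Irx3 and Irx5 in the fetal ovary, 11 were tested, with 8 lower and 3 higher means and a median of -0.06. While 16.6% of all probe sets tested were lower without overlap, the groups did not overlap in 2 of the list, both lower. Those were Axin2, a feedback inhibitor that beta-catenin induces, with control signals of 101 and 78.9 and GDNF signals of 67.0 and 75.6 (-0.33, SE 0.20, and -0.15 without control replicate 1), and the Wnt receptor ligase Znrf3 (-0.18, SE 0.14, and -0.09 without GDNF replicate 1). Wnt4, the ligand of the fetal ovary, read 639 and 676 without and 582 and 688 with GDNF, and overlapped. The highest were Tcf7 (0.10, SE 0.16, and -0.10 without GDNF replicate 2) and the receptor Lgr4 (0.03, SE 0.19, and -0.11 without GDNF replicate 1). Dimmer probe sets of Lef1 (-0.09), Nkd1 (-0.09) and Tcf7l2 (-0.29) were also lower without overlap. Further dimmer sets of Nkd1 (-0.14) and Tcf7l2 (0.006) overlapped, as did those of Fst (-0.09) and Ctnnb1 (0.24 and 0.05). Rspo1 and Lgr5 were below the filter. No gene of the list had a fold change as low as that of Irx3 1390776_at.

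Granulosa cell genes went both ways around Irx3 and Irx5. Of 16 tested, 9 had higher and 7 lower means, with a median of 0.02. Over all probe sets tested, 13.4% were higher and 16.6% lower without overlap, against 4 and 6 of these 16 genes. The 2 with the lowest fold changes, both below that of Irx3 1390776_at, were homeobox genes of the early gonad. Emx2 had control signals of 349.5 and 308, and GDNF signals of 233 and 237 (-0.48, SE 0.12). Lhx9 read 1019 and 854 without and 693 and 669 with GDNF (-0.45, SE 0.12). At the other end were the estradiol-forming enzyme Hsd17b1 (0.83, SE 0.37, overlapping, and 0.33 without GDNF replicate 1) and the anti-Müllerian hormone gene Amh (0.58, SE 0.14). The granulosa regulator Foxl2 was higher without overlap (0.18, SE 0.10), opposite to Irx3 and Irx5, as were Inha (0.46) and Nr5a2 (0.58). Kitlg (-0.35), Amhr2 (-0.25), Wt1 (-0.22) and Gata4 (-0.22) were lower without overlap, in the direction of Irx3 and Irx5. Dimmer probe sets of Nr5a2, Kitlg, Wt1 and Gata4 overlapped. No gene of this list reached the -0.65 of Irx5 1386823_at.

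Genes of contacts between cells, named because of the role of Irx3 and Irx5 at the granulosa-oocyte boundary, had a median of -0.02 over 9 tested, 4 higher and 5 lower. Only the junction scaffold Tjp1 did not overlap (-0.13, SE 0.10, and -0.08 without control replicate 2), while 16.6% of all probe sets tested were lower without overlap. The connexin genes Gja4 (0.42, SE 0.20, and 0.18 without control replicate 1) and Gja5 (0.30, SE 0.27, and 0.04 without GDNF replicate 2) were the highest and overlapped. Ctnna1 (-0.09, SE 0.10, and -0.02 without control replicate 1) was the second lowest. Gja1, the main connexin between granulosa cells, read 3946 and 3191 without and 3472 and 3547 with GDNF, and overlapped (-0.02, and 0.07 in a dimmer probe set).

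**Figure D3:**
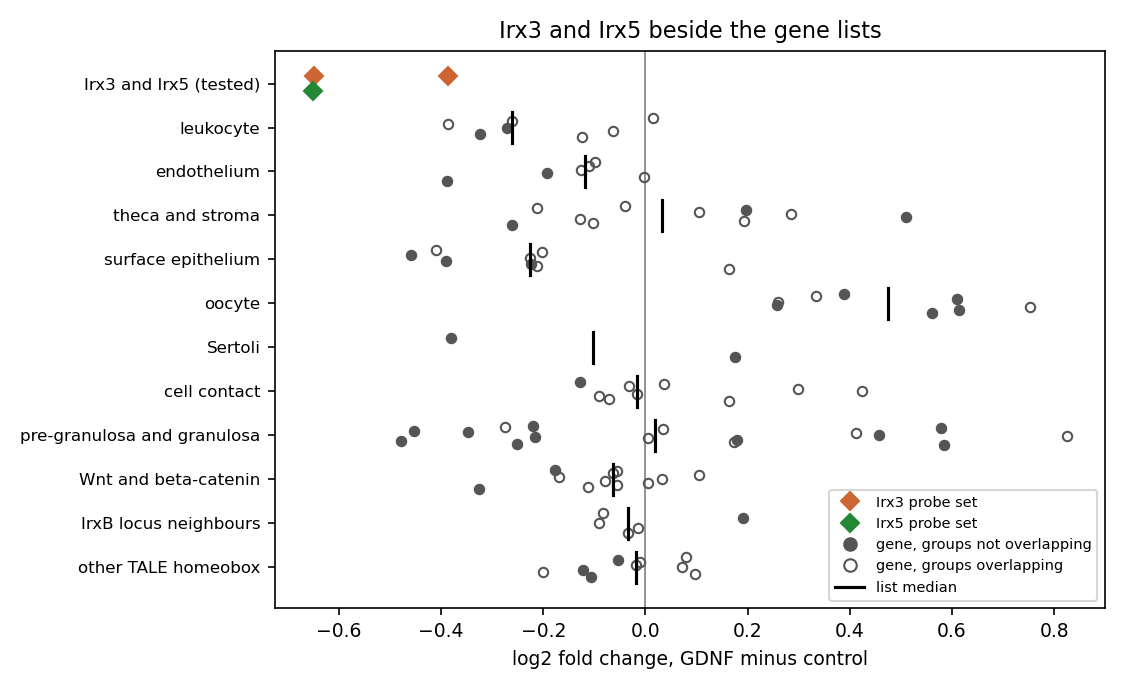
Log2 fold change (GDNF minus control) of every tested gene of each list, 1 probe set per gene, with filled circles where the groups did not overlap and a bar at the list median. Diamonds are the tested Irx3 (orange) and Irx5 (green) probe sets, at -0.39, -0.65 and -0.65. The oocyte list lies to the right of 0 and the surface epithelium list mostly to the left.

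Marker genes of oocytes, surface epithelium and endothelium also differed between the samples in which Irx3 and Irx5 were lower. Their part in that difference was not tested, and which cells made Irx3 or Irx5 was not measured. Over all probe sets tested, 13.4% were higher and 16.6% lower in GDNF without overlap. The summed signal of the 8 oocyte genes tested was 5892 and 7164 on the control and 7597 and 9249 on the GDNF arrays. All 8 had higher means, 5 without overlap, and their median was 0.47. The highest were Kit (0.75, overlapping, and 0.29 without control replicate 1) and Gdf9 (0.61), and the lowest Ooep (0.26, and 0.16 without control replicate 1) and Sohlh1 (0.26, and -0.03 without GDNF replicate 2). The 8 surface epithelium genes summed to 6670 and 5659 without and 5569 and 4944 with GDNF, 7 of them lower (3 without overlap) and 1 higher, and a median of -0.23. The keratin gene Krt7, at 481 and 483 without and 377 and 357 with GDNF, differed by as much as Irx3 1390776_at (-0.39, SE 0.11). The other keratin genes of the list, Krt8 (-0.23), Krt19 (-0.22) and Krt18 (-0.21), differed less. Krt8 and Krt18 overlapped, and were 0.01 and 0.04 without control replicate 1. The lowest of that list were Lgals7 (-0.46) and Upk1b (-0.41, overlapping, and -0.04 without control replicate 1), and the highest Cdh1 (0.16, and -0.04 without GDNF replicate 1) and Msln (-0.20, and 0.05 without control replicate 1). The 6 endothelial genes tested summed to 1372 and 1370 without and 1251 and 1186 with GDNF, all 6 lower (2 without overlap, median -0.12), with Egfl7 (-0.39, and -0.21 in a dimmer probe set) and Kdr (-0.19) the lowest, and Tie1 (-0.10, and 0.17 without control replicate 1) and Emcn (-0.0025, and 0.17 without control replicate 2) the highest. These 3 lists had sums that did not overlap between the groups. Bright genes weigh most in such sums. Among them, Kdr averaged 912 in control and 798 in GDNF samples, and Krt19 3861 and 3301. Once Krt19 is left out, the surface epithelium sums of the groups overlap.

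The sums of the 16 granulosa genes (9733 and 9159 without, 9419 and 8920 with GDNF) did overlap. So did the sums of the 10 theca and stroma genes, 4526 and 4309 without against 4767 and 4249 with GDNF, 5 higher and 5 lower, with a median of 0.03. Their highest were Hsd3b1 (0.51) and Lhcgr (0.29, and -0.14 without GDNF replicate 1), and their lowest Acta2 (-0.26) and Star (-0.21, overlapping, -0.05 in a dimmer probe set, and -0.0009 without GDNF replicate 2). The 7 leukocyte genes summed to 810 and 646 without and 883 and 508 with GDNF, 6 of them lower (median -0.26), with Laptm5 (-0.39, 0.67 in a dimmer probe set, and 0.09 without GDNF replicate 2) and Cd68 (-0.32, and -0.19 without control replicate 1) the lowest and Tyrobp (0.01, and -0.18 without control replicate 2) and Cd74 (-0.06, and 0.55 without GDNF replicate 2) the highest. Of the Sertoli genes, Ptgds (-0.38) and Dhh (0.18, and 0.08 without control replicate 2) were tested. They summed to 178 and 169 without and 142 and 141 with GDNF, without overlap. Dmrt1 and Sox10 were below the filter, and Sox9 and Sox8 were not analysed here. No marker was listed at 0 on any array.

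The genes whose pattern over the 4 arrays was most like that of Irx3 were found by the root mean square difference of log2 profiles, each centred on its own mean. For Irx3 1390776_at the nearest of 14245 probe sets with a single symbol was Egfl7, a secreted factor of endothelial cells, at 0.015, with control signals of 76.8 and 74.2 and GDNF signals of 56.1 and 58.8. A dimmer Egfl7 probe set read 62.2 and 59.8 without and 58.9 and 46.7 with GDNF (-0.21), so this likeness holds for 1 of its 2 tested probe sets. Next came Pced1b (0.016), the protein kinase C gene Prkcb (0.019), the ephrin receptor gene Epha4 (0.023) and C19h1orf198 (0.023). Their fold changes ran from -0.34 for Epha4 to -0.41 for Prkcb. Such a pattern was common, since 429 probe sets lay within 0.1 of Irx3 1390776_at. The other bright Irx3 probe set, 1394251_x_at, had a larger fold change (-0.65), and no nearest genes were sought for it. For Irx5 1386823_at only 15 of 14246 lay within 0.1. The nearest was Tns1, a focal adhesion protein gene (0.053), at 121 and 76.6 without and 70.9 and 55.7 with GDNF. It was followed by the semaphorin Sema3f (0.055), the pyrimidine-degrading enzyme Dpyd (0.070), the mast cell chymase Cma1 (0.071) and the endocytic receptor Lrp2 (0.075). Having been picked by pattern, all 5 shared with Irx5 a control replicate 1 well above control replicate 2. Without control replicate 1 their fold changes were closer to 0, at -0.28 for Tns1, -0.29 for Sema3f, -0.34 for Dpyd, -0.37 for Cma1 and -0.40 for Lrp2, as was that of Irx5 at -0.39. Over 4 arrays such likeness is a description of the values and no sign of shared control.

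**Figure D4:**
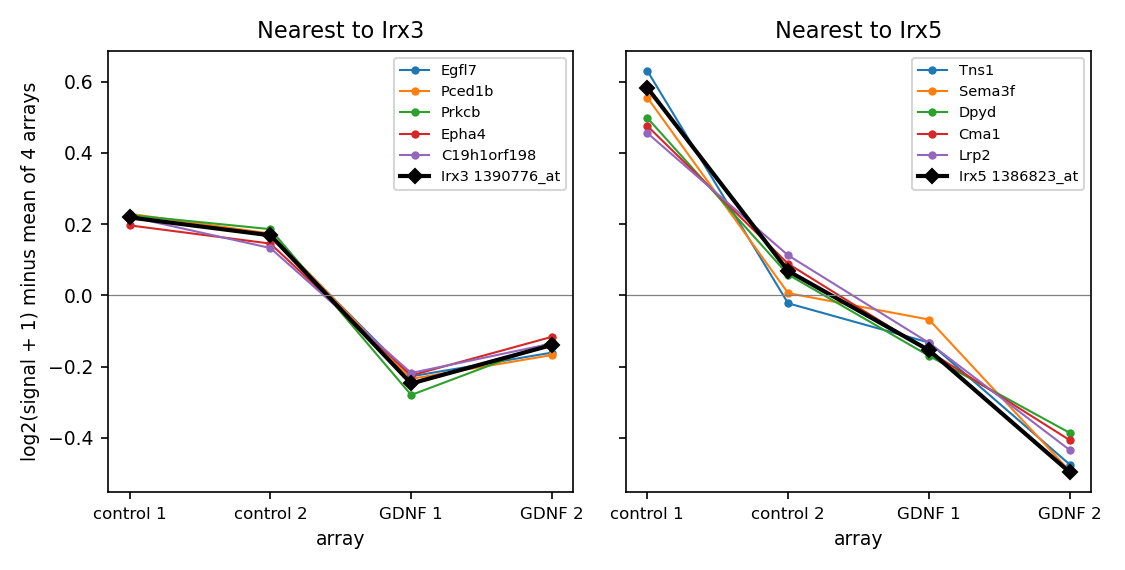
Log2(signal + 1) minus the mean of the 4 arrays for Irx3 1390776_at (left) and Irx5 1386823_at (right) in black, with the 5 nearest genes of each in colour and lines joining the values of 1 gene. The Irx3 profile varies little within groups and the Irx5 profile varies more, with control replicate 1 highest.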

How the data were processed

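The authors deposited linear array intensities, computed with MAS5 per the submitters' processing notes, whose version and scaling target are not given in the sources used here. That method sets mismatch probes against perfect-match probes, which leaves low signals noisy, and scales every array alike. The arrays' means, with 2% trimmed from both ends, were 125.03 to 125.04, so total RNA per ovary could have changed unseen. The 57 Affymetrix control probe sets of 31099 were left out. On the log2(signal + 1) scale, 18625 probe sets with a mean at or above the 40th percentile went into limma 3.58.1 in R 4.3.3 (lmFit, eBayes with trend, two-sided, Benjamini-Hochberg adjustment over all tested). The script was tested on simulated data. With 2 samples against 2, an exact permutation test cannot go below p = 0.333, and none is given.

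Symbols came from GEO's platform annotation, where 20826 probe sets had 1 symbol, 436 several and 9780 none. The RefSeq gene table (GRCr8) gave the order of neighbouring genes, and the promoters are RefSeq's, with Irx1, Irx2, Irx3 and Irx4 matched. In lists, the brightest tested probe set stands for a gene. The members, the lists and the rule for named genes were chosen with earlier results of these data known. The rule names all Iroquois genes and tested neighbours, the 2 highest and 2 lowest of each other list, and the 5 genes nearest in pattern. Other genes were named for their role, after their values were seen, or to stand beside such genes. They are Foxl2, Kitlg, Amhr2, Wt1, Gata4, Inha, Nr5a2, Zp3, Wnt4, Lef1, Nkd1, Tcf7l2, Fst, Ctnnb1, Gja1, Meis1, Pknox1, Tgif1, Krt7, Krt8, Krt18 and Krt19. Results were recomputed with a larger pseudocount (16), without the filter or with one at the 60th percentile, after quantile normalization, with arrays centred on their medians, with eBayes lacking its trend, with replicate number as a block, with a gene's probe sets averaged, and without each sample.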

Additional observations from a re-analysis of the deposited data

How the results depend on the processing

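The log2 fold changes of Irx3 1390776_at, Irx3 1394251_x_at and Irx5 1386823_at stayed negative under every alternative run. For most runs that sign was fixed beforehand. Where groups do not overlap, leaving out a sample can change only the size of a difference. The filter, trend and block settings leave these fold changes as they were. Leaving out each sample gave -0.44 to -0.33, -0.75 to -0.55 and -0.91 to -0.39, in that order. With a pseudocount of 16, Irx5 was -0.49. Their groups also did not overlap after quantile normalization or median centring. At the 60th percentile filter Irx5 was no longer among the probe sets tested. No probe set was called under any other alternative, but with the replicate number as a block 8 were, in a paired fit with few residual degrees of freedom. What that number stands for is not in the labels. Deviations from the group means correlated at 0.323 between samples of the same number.

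Apart from leaving out a sample, list medians moved by more than their replicate spread in these cases. The cell contact median was 0.037 with the mean over a gene's probe sets, the granulosa median -0.11 at the 60th percentile filter, and that of the Sertoli list 0.29 with no filter and -0.38 at the 60th percentile, with few genes tested. The cause was not tested for the others. Leaving out a sample also moved the median by more than that spread, in some or all runs, for each list that follows. With each sample left out, medians ran from -0.060 to 0.027 for the locus neighbours, -0.19 to 0.0046 for Wnt genes, -0.018 to 0.093 for cell contact, -0.059 to 0.069 for granulosa, 0.27 to 0.60 for oocyte, -0.46 to -0.017 for surface epithelium, -0.10 to 0.034 for theca and stroma, -0.24 to -0.14 for endothelium and -0.40 to -0.070 for leukocyte genes. Without the filter, so over more probe sets, 5149 probe sets were lower and 4292 higher in GDNF without overlap. Low signal limits Irx5 and the other Iroquois genes.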
